A study of Homo sapiens with 24 samples.

Results

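The genes described here are those of the centrosome and the cilium transport machinery whose symbols are CEP, IFT or BBS followed by a digit. On the array, 63 of the 14884 genes tested met this rule, namely 38 CEP, 17 IFT and 8 BBS genes, each read by its brightest probe set on average across the 24 arrays. Of the 63, 59 are protein-coding in the RefSeq gene table, and CEP192P1, IFT122P3, CEP170P1 (transcribed pseudogenes) and CEP83-DT (a long non-coding RNA) are not. Membership rests on names alone, the probe set kept was chosen by its mean level, and no low-signal filter was applied.

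All arrays carry RNA of HepG2, a human liver carcinoma line. The 8 groups are 1 uM BRD8518 (a compound given only as a code) at 1 h with 3 arrays, at 6 h with 2 and at 24 h with 3, 100 ng/mL OSM (the cytokine oncostatin M) at 1 h and at 24 h with 3 each, and DMSO vehicle at 1 h with 3, at 6 h with 4 and at 24 h with 3. Every well held 0.25% DMSO, treated wells included. Whether replicates are separate cultures is not stated, so p-values describe the spread among these arrays alone, and that spread may be technical. Because arrays hold bulk RNA, fewer cells expressing a gene and less RNA per cell cannot be told apart.

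Centrioles are barrels of microtubules that organise the centrosome, and a mother centriole that docks at the membrane becomes the basal body of a cilium. CEP proteins build, duplicate, cap and link centrioles or anchor cilia to them. IFT proteins form the IFT-A and IFT-B trains that carry cargo along the cilium, IFT-B with kinesin towards the tip and IFT-A with dynein back to the base, and the BBSome is a coat that moves membrane proteins out of the cilium on those trains. Many of these genes are mutated in human ciliopathies, including those of kidney, retina and liver.

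Levels are log2 RMA values, and a change is a difference of group means on that scale with its standard error (SE) from limma. A gene is called where limma's p, adjusted by Benjamini-Hochberg over all 14884 genes, was under 0.05, and it is then said to have risen or fallen. TRIB1, which the treatments of this series are named as inducing, was 1.39 ± 0.09 (SE) above DMSO with BRD8518 at 6 h and 1.21 ± 0.08 at 24 h, and 1.68 ± 0.08 above DMSO with OSM at 1 h. Hepatocyte markers had mean levels of 10.1 to 10.6 on every array (16 of 19 genes measured), from APOB at 12.54, the brightest gene of all, to TM4SF4 at 4.63. Markers of other cell types (13 of 25 measured) averaged 6.69 to 6.98, and of these LYZ (12.24), SOX9 (10.77) and CD68 (9.81) had the highest mean levels. Array medians lay between 4.89 and 4.95. DMSO 6 h replicate 2 stood apart, with a median correlation of 0.977 to the other arrays of its group, against 0.995 to 0.996 within groups for all other arrays. Counts of calls that it moved by over 1.5 times, and the changes called at 6 h, are given with and without it. The fit shares 1 estimate of the spread among all groups, so this array enters every comparison.

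At 24 h of BRD8518, 27 of the 63 members were called, 6 higher and 21 lower than DMSO, which is 42.9% of members against 27.7% of all genes. The median change of the members was -0.15, against a median near 0 over all genes. Without DMSO 6 h replicate 2, 7 were higher and 28 lower (55.6% of members, against 35.7% of all genes). By family, 9 of 17 IFT genes fell and none rose, 3 of 8 BBS genes fell and none rose, and among 38 CEP genes 9 fell and 6 rose. All 3 BRD8518 arrays lay on one side of all 3 DMSO arrays in 41 of the 63 members (65.1%), against 44.2% of all genes, and of the called members IFT57 was the exception.

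**Figure D1:**
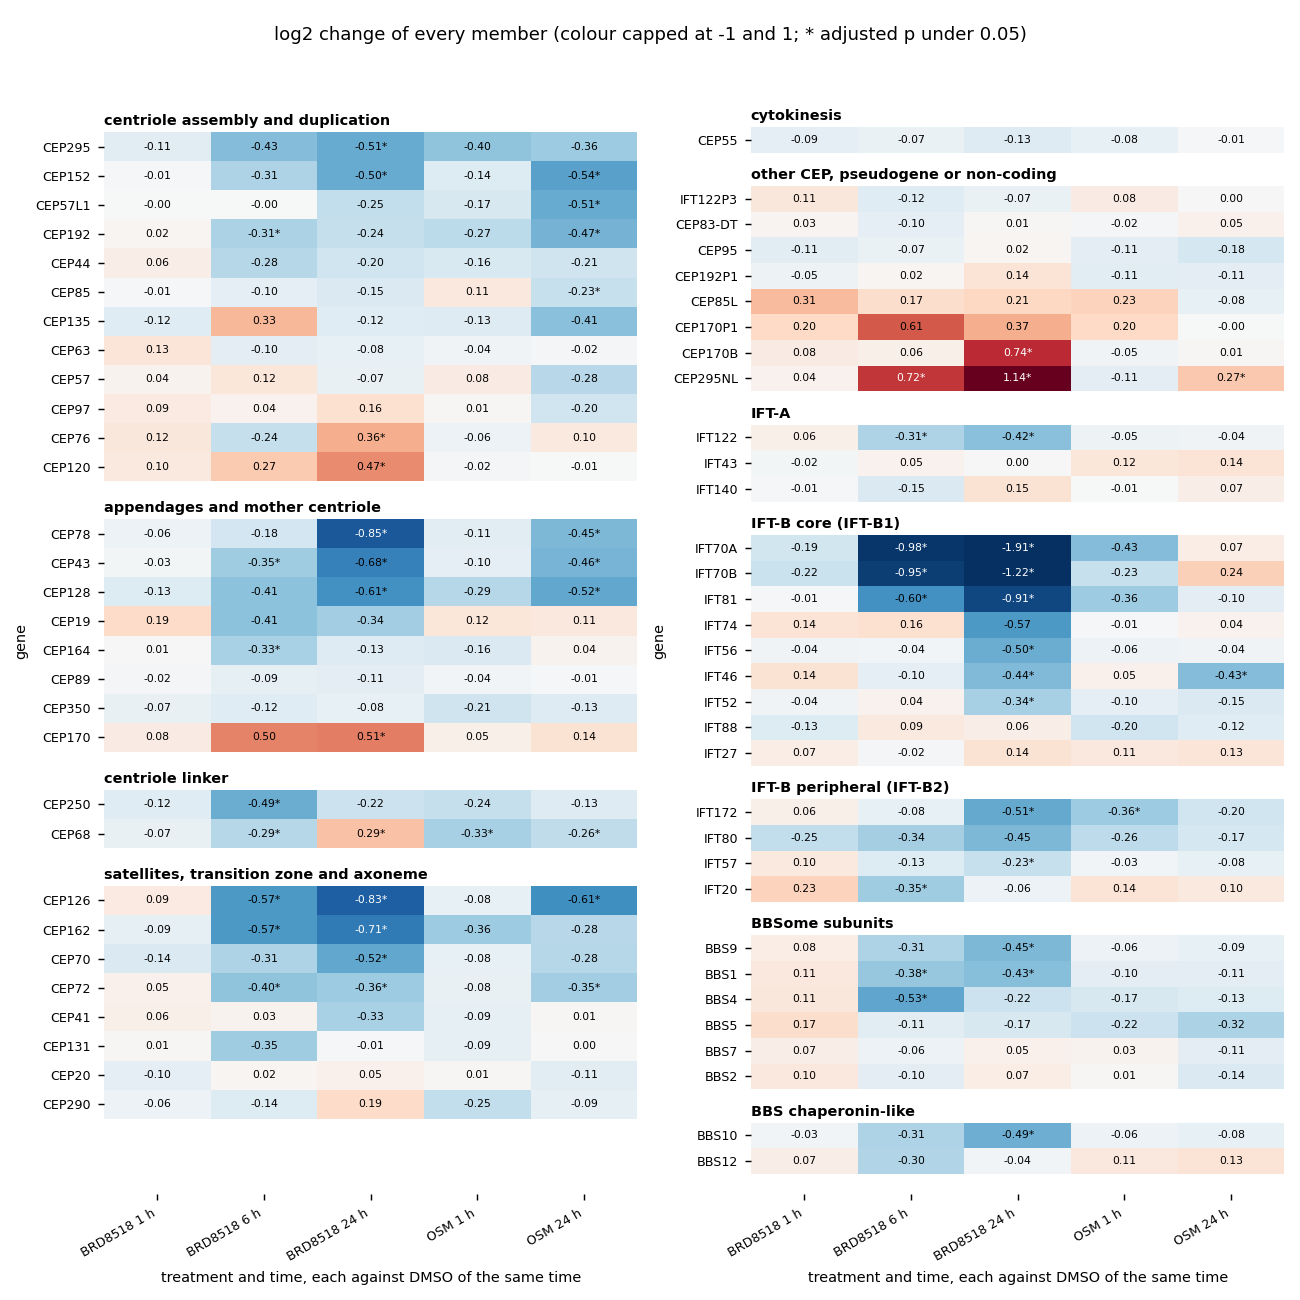
Changes of all 63 members against DMSO of the same time, in log2 units, for BRD8518 at 1, 6 and 24 h and OSM at 1 and 24 h; rows are genes grouped by role and ordered by the BRD8518 24 h change, blue is lower and red is higher than DMSO with the colour capped at 1 unit either way, and an asterisk marks an adjusted p under 0.05. The IFT-B core rows are darkest in the BRD8518 24 h column, reaching -1.91 for IFT70A, while in the OSM 24 h column 1 IFT row (IFT46) and no BBS row carries an asterisk.

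The IFT-B core, the stable heart of the IFT-B train, held the largest falls. Of its 9 measured subunits, 6 fell with BRD8518 at 24 h (IFT70A, IFT70B, IFT81, IFT56, IFT46 and IFT52), none rose, and the median change was -0.50. IFT70A, a repeat protein that wraps around other core subunits, read 3.50, 4.22 and 3.38 on the BRD8518 24 h arrays, against 5.44, 5.49 and 5.89 on the DMSO 24 h arrays. This is a change of -1.91 ± 0.27 (SE), or 3.75-fold lower (adjusted p = 9.3e-06), and no array of either group reached into the other. IFT70B, its paralog, read 4.15, 4.33 and 3.54 with BRD8518 and 5.09, 5.24 and 5.35 with DMSO, a change of -1.22 ± 0.20 (adjusted p = 3.8e-05). Again the groups did not overlap.

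IFT70A and IFT70B are neighbouring genes on chromosome 2 and are close copies, so a probe set named for one may read the other, and their values are not independent. IFT70A has a second probe set, with a mean over all arrays of 5.04, against 5.16 for the one kept. This second set changed by -0.38 at 24 h and -0.25 at 6 h. At 24 h it averaged 4.69 with BRD8518 and 5.08 with DMSO, where the kept set averaged 3.70 and 5.61. The size of the IFT70A fall thus depends on the probe set, and the mean of both gives -1.15 at 24 h, which still passed. IFT81, which with IFT74 forms the tubulin-binding module of the train, read 5.26, 5.31 and 5.29 on the BRD8518 24 h arrays, against 6.21, 6.35 and 6.02 on the DMSO 24 h arrays (-0.91 ± 0.12, adjusted p = 1.8e-06). The 3 treated arrays lay within 0.05 of each other and below every DMSO array. Its partner IFT74 read 5.74, 5.68 and 5.52 with BRD8518 and 6.30, 6.37 and 5.99 with DMSO. That change of -0.57 ± 0.24 did not pass with all arrays (adjusted p = 0.089) and passed without DMSO 6 h replicate 2 (adjusted p = 0.00018).

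The other core subunits that fell changed less. IFT56, a core subunit formerly called TTC26, changed by -0.50 ± 0.12, IFT46 by -0.44 ± 0.11 and IFT52, which bridges core and periphery, by -0.34 ± 0.08. IFT88, whose loss abolishes cilia in mice, changed by 0.06 ± 0.12 and did not pass (95% interval -0.19 to 0.31). IFT27, a small GTPase of the core, changed by 0.14 ± 0.12 and did not pass either.

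In the peripheral part of IFT-B, 2 of 4 subunits fell with BRD8518 at 24 h. IFT172, which sits at the turnaround point of trains at the tip, read 6.50, 6.64 and 6.60, against 7.17, 7.11 and 6.98 with DMSO (-0.51 ± 0.09, adjusted p = 0.00019). IFT57 changed by -0.23 ± 0.08, its arrays overlapped those of DMSO, and its call was lost without BRD8518 replicate 2 or 3 or DMSO replicate 2 or 3 (adjusted p = 0.095, 0.17, 0.18 and 0.11). IFT80 changed by -0.45 ± 0.18 (adjusted p = 0.076) and passed without DMSO 6 h replicate 2 (adjusted p = 0.00039). IFT20, which also works at the Golgi, changed by -0.06 ± 0.11. Of the IFT-A subunits, which bring trains and membrane cargo back and in, IFT122 fell by 0.42 (SE 0.09, adjusted p = 0.0006). IFT140 changed by 0.15 ± 0.08 and the dim IFT43 by 0.00 ± 0.10, neither passing.

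Of the 6 BBSome subunits measured, BBS1 and BBS9 fell with BRD8518 at 24 h. BBS1, which binds the ARL6 GTPase that brings the coat to membranes, read 6.47, 6.52 and 6.73, against 6.89, 7.14 and 6.97 with DMSO (-0.43 ± 0.08). BBS9 changed by -0.45 ± 0.11. BBS2, BBS4, BBS5 and BBS7 changed by -0.22 to 0.07 and did not pass. BBS10, a chaperonin-like protein that helps the coat assemble, read 6.98, 7.06 and 6.83, against 7.46, 7.41 and 7.47 with DMSO (-0.49 ± 0.11), and its relative BBS12 changed by -0.04 ± 0.10.

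**Figure D2:**
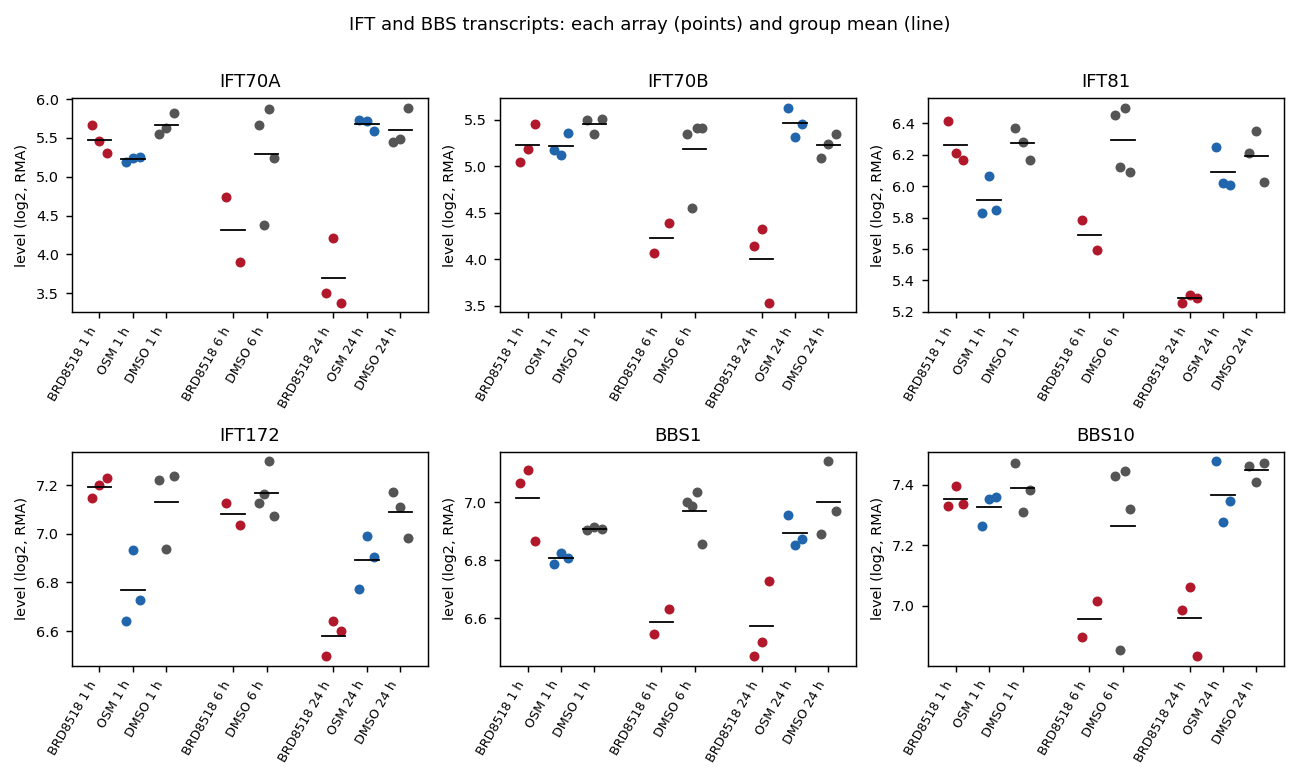
Levels (log2, RMA) of 6 IFT and BBS transcripts on each of the 24 arrays, with a line at each group mean; red is BRD8518, blue OSM and grey DMSO, ordered by time. IFT70A, IFT70B and IFT81 sit below all other groups of their time with BRD8518 at 24 h, with OSM and DMSO arrays at like levels, and 1 DMSO 6 h array of IFT70A, IFT70B and BBS10 lies near the BRD8518 6 h arrays.

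Promoters are shown for IFT70A and IFT70B, which moved together and are copies, for IFT81, the next largest fall, and for CEP43, which fell too and holds none of the motifs searched. RefSeq (GRCh38.p14) gives these 300 bases, 250 before and 50 after the gene start, at chr2:177618693-177618992 (minus strand) for IFT70A, chr2:177552747-177553046 (minus strand) for IFT70B, chr12:110124107-110124406 (plus strand) for IFT81 and chr6:166999147-166999446 (plus strand) for CEP43. Capitals mark GTTGCC, the core of the X-box bound by RFX factors that switch on ciliary genes, and TTTGAA, the cell cycle homology region (CHR) element.
IFT70A: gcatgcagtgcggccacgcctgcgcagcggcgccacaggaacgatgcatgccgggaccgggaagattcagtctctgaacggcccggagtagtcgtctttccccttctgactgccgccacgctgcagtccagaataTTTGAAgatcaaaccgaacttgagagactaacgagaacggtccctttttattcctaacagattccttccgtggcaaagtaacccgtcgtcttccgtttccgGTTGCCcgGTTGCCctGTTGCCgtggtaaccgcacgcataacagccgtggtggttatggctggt
IFT70B: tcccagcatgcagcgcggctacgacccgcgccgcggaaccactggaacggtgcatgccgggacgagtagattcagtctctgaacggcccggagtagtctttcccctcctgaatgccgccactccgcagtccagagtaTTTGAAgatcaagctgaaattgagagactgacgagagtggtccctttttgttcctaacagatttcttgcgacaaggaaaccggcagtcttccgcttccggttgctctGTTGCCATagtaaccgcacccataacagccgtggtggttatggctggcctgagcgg
IFT81: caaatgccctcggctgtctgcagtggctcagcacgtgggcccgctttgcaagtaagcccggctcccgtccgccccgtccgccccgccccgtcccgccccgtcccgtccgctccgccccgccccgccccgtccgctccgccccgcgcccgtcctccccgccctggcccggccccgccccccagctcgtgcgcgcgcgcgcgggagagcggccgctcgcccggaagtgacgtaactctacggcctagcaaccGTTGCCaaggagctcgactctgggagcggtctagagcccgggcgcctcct
CEP43: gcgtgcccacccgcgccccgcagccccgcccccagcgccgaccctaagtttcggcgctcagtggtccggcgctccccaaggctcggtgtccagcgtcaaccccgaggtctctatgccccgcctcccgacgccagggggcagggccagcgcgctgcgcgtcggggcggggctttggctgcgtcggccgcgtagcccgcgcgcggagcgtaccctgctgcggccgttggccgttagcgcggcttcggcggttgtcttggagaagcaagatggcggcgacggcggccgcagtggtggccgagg
The IFT70A and IFT70B promoters were identical at 251 of 286 aligned bases (87.8%). IFT70A holds 3 copies of GTTGCC and 1 of TTTGAA, and IFT70B holds 1 of each, its GTTGCC lying inside the longer GTTGCCAT. IFT81 holds 1 GTTGCC.

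A promoter of that length was found for 55 of the 63 members and for 10749 tested genes, and 10 motifs were searched on both strands. GTTGCC was in 20 of the 55 member promoters (36.4%), against 13.2% of all promoters. By response to BRD8518 at 24 h, it was in 9 of 19 promoters of members that fell, in 0 of 4 of those that rose and in 11 of 32 of those not called. Those that fell with it were IFT70A, IFT70B, IFT81, IFT122, IFT46, BBS1, BBS10, CEP126 and CEP128. TTTGAA was in 29.1% of member promoters, against 11.8% of all, and in 31.6% of those that fell and 28.1% of those not called. CCAAT was in 49.1% of member promoters, against 36% of all, and TGACGTCA (the cAMP response element) in 9.09%, against 2.62%. The E2F motifs TTTCCCGC (3.64%, against 2.2%) and TTTGGCGC (0%, against 0.874%), the NRF1 core GCGCATGC (0%, against 4.55%), the AP-1 site TGACTCA (1.82%, against 3.85%), the STAT site TTCNNNGAA (5.45%, against 6.74%) and GTTGCCAT (3.64%, against 1.34%) were in few. A match is a description of these letters and not of a bound site.

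The CEP genes of the mother centriole and its appendages, which dock the basal body and anchor microtubules, went both ways. CEP78, a mother centriole protein mutated in a disorder of vision and hearing, read 7.49, 7.62 and 7.33 on the BRD8518 24 h arrays, against 8.22, 8.35 and 8.40 on the DMSO arrays (-0.85 ± 0.14, adjusted p = 4.0e-05). CEP43, also called FOP and needed to start ciliogenesis, read 7.84, 7.77 and 7.78, against 8.36, 8.57 and 8.50 (-0.68 ± 0.07, adjusted p = 1.0e-07). Both sets of arrays were well apart, and CEP43 had the smallest error of the falls over 0.5. CEP128, a subdistal appendage protein, changed by -0.61 ± 0.16.

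CEP170, also of the subdistal appendages, rose. It read 8.03, 8.09 and 8.06 with BRD8518 and 7.66, 7.70 and 7.30 with DMSO at 24 h (0.51 ± 0.17, adjusted p = 0.027). DMSO replicate 3 was the lowest array, and the call was lost without it (0.38, adjusted p = 0.16) or without any 1 of the BRD8518 arrays (adjusted p = 0.056 to 0.069). The distal appendage proteins CEP164 and CEP89 changed by -0.13 ± 0.08 and -0.11 ± 0.11, CEP350 by -0.08 ± 0.08 and CEP19, which brings IFT-B to the basal body, by -0.34 ± 0.13 (adjusted p = 0.056). None of these 4 passed with all arrays, whereas CEP19 passed without DMSO 6 h replicate 2 (adjusted p = 0.035).

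Among satellite, transition zone and axoneme proteins, 4 of 8 fell with BRD8518 at 24 h. CEP126, a microtubule-binding centrosome protein, read 5.45, 5.29 and 5.19, against 6.13, 6.28 and 6.00 with DMSO (-0.83 ± 0.16, adjusted p = 0.00037). CEP162, which tethers the transition zone to the axoneme, read 4.75, 5.10 and 4.93, against 5.64, 5.79 and 5.49 (-0.71 ± 0.18, adjusted p = 0.0042). For both CEP genes all treated arrays lay below all DMSO arrays.

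CEP72, which recruits partners to satellites, changed by -0.36 ± 0.08. CEP70 changed by -0.52 ± 0.18, a call lost without BRD8518 replicate 1 (adjusted p = 0.15), DMSO replicate 1 (0.06) or DMSO replicate 2 (0.12). CEP41, which serves tubulin glutamylation in the axoneme, changed by -0.33 ± 0.16 (adjusted p = 0.16, and 0.00029 without DMSO 6 h replicate 2). CEP131, CEP290 (a transition zone protein mutated in several ciliopathies) and CEP20 changed by -0.01 to 0.19 and did not pass. CEP20, with the highest mean of all members, read 10.54, 10.52 and 10.48 with BRD8518 and 10.45, 10.51 and 10.44 with DMSO at 24 h.

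Of 12 centriole assembly and duplication genes, 2 fell and 2 rose with BRD8518 at 24 h. CEP152, which brings the PLK4 kinase to the centriole wall, changed by -0.50 ± 0.13 and CEP295, needed to turn a new centriole into a centrosome, by -0.51 ± 0.19. The CEP295 call was lost without any 1 of the 6 arrays compared (adjusted p = 0.06 to 0.18). CEP120, which elongates centrioles, read 7.87, 7.94 and 7.83, against 7.35, 7.44 and 7.45 with DMSO (0.47 ± 0.08, adjusted p = 0.00014). CEP76, which limits re-duplication, read 8.16, 8.24 and 8.16, against 7.77, 7.89 and 7.82 (0.36 ± 0.11, adjusted p = 0.015). The arrays of both were apart, although the CEP76 call was lost without BRD8518 replicate 2 (adjusted p = 0.054) or DMSO replicate 1 (0.056).

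The other 8 genes of this role did not pass at 24 h of BRD8518. They are CEP192, the scaffold of the pericentriolar material (-0.24 ± 0.09, adjusted p = 0.055, and 0.037 without DMSO 6 h replicate 2), CEP63, CEP135, CEP85, CEP44, CEP97, CEP57 and CEP57L1, with changes from -0.25 to 0.16. Of the linker that holds centriole pairs together, CEP68 rose and its partner CEP250 changed by -0.22 ± 0.10 without passing. CEP68 read 7.49, 7.51 and 7.49 with BRD8518 and 7.15, 7.22 and 7.24 with DMSO (0.29 ± 0.08, adjusted p = 0.0085), and the arrays of the groups did not overlap.

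The largest rise was that of CEP295NL, named for its likeness to CEP295. It read 6.69, 6.79 and 6.55 with BRD8518 at 24 h, against 5.52, 5.55 and 5.54 with DMSO (1.14 ± 0.08, 2.20-fold, adjusted p = 2.8e-10). CEP295NL lies wholly inside TIMP2 in the RefSeq table. TIMP2, an inhibitor of matrix proteases, averaged 9.83 ± 0.05 with BRD8518 and 7.82 ± 0.04 with DMSO (SD, n = 3 each), a rise of 2.01 ± 0.13 (SE). At 6 h CEP295NL rose by 0.72 with all arrays and by 0.70 without DMSO 6 h replicate 2. TIMP2 changed by 0.20 ± 0.14 (adjusted p = 0.43) at 6 h with all arrays, and rose by 0.39 ± 0.07 (adjusted p = 0.00034) without that replicate, which read 8.52 against 7.75 to 7.80 on the other DMSO 6 h arrays. Whether the CEP295NL probe set reads TIMP2 transcripts was not tested.

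Other members overlap neighbouring genes in the RefSeq table. Among members called with BRD8518 at 24 h, 10 pairs with a measured overlapping gene occurred, and that gene moved the same way in 3, the opposite way in 1 and was not called in 6. Beside CEP295NL, the same way went CEP162 with MRAP2 (-0.62 ± 0.14) and CEP76 with SPIRE1 (1.31 ± 0.09), and the opposite way went IFT46 with TMEM25 (0.29 ± 0.08). CEP76 and SPIRE1 lie on the same strand and share 136 bases. MRAP2 and TMEM25 lie on the strand opposite to CEP162 and IFT46. Not called were TPPP beside CEP72 (0.05), TSHR beside CEP128 (-0.03), ANGPTL5 beside CEP126 (-0.02), KRTCAP3 beside IFT172 (0.15), SCARNA9 beside CEP295 (0.27) and ARCN1 beside IFT46 (-0.08). CEP76 also overlaps PSMG2, which has no value here.

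CEP170B, a paralog of CEP170, read 8.22, 8.47 and 8.34 with BRD8518 at 24 h, against 7.52, 7.57 and 7.72 with DMSO (0.74 ± 0.17, adjusted p = 0.0018). CEP170P1, the CEP170 pseudogene, whose probe set may read CEP170, changed by 0.37 ± 0.21 (adjusted p = 0.24, and 0.0048 without DMSO 6 h replicate 2). CEP85L, CEP95, CEP192P1, IFT122P3 and CEP83-DT changed by -0.07 to 0.21 and did not pass. CEP95, with the second highest mean, averaged 9.08 ± 0.0087 with BRD8518 and 9.06 ± 0.076 with DMSO at 24 h (SD, n = 3 each). The dimmest members were CEP85L, at 3.87, 4.02 and 3.92 with BRD8518 and 3.60, 3.74 and 3.85 with DMSO, and IFT43, at 3.74, 3.77 and 3.71 with BRD8518 and 3.86, 3.56 and 3.78 with DMSO. The arrays of IFT43 overlapped and those of CEP85L did not.

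CEP55, which recruits the abscission machinery at the end of mitosis, read 8.01, 7.93 and 7.90 with BRD8518 at 24 h, against 8.06, 8.15 and 8.03 with DMSO. Its change of -0.13 ± 0.12 did not pass (95% interval -0.38 to 0.12). With OSM at 24 h it read 8.07, 8.03 and 8.10 and changed by -0.01 ± 0.12.

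**Figure D3:**
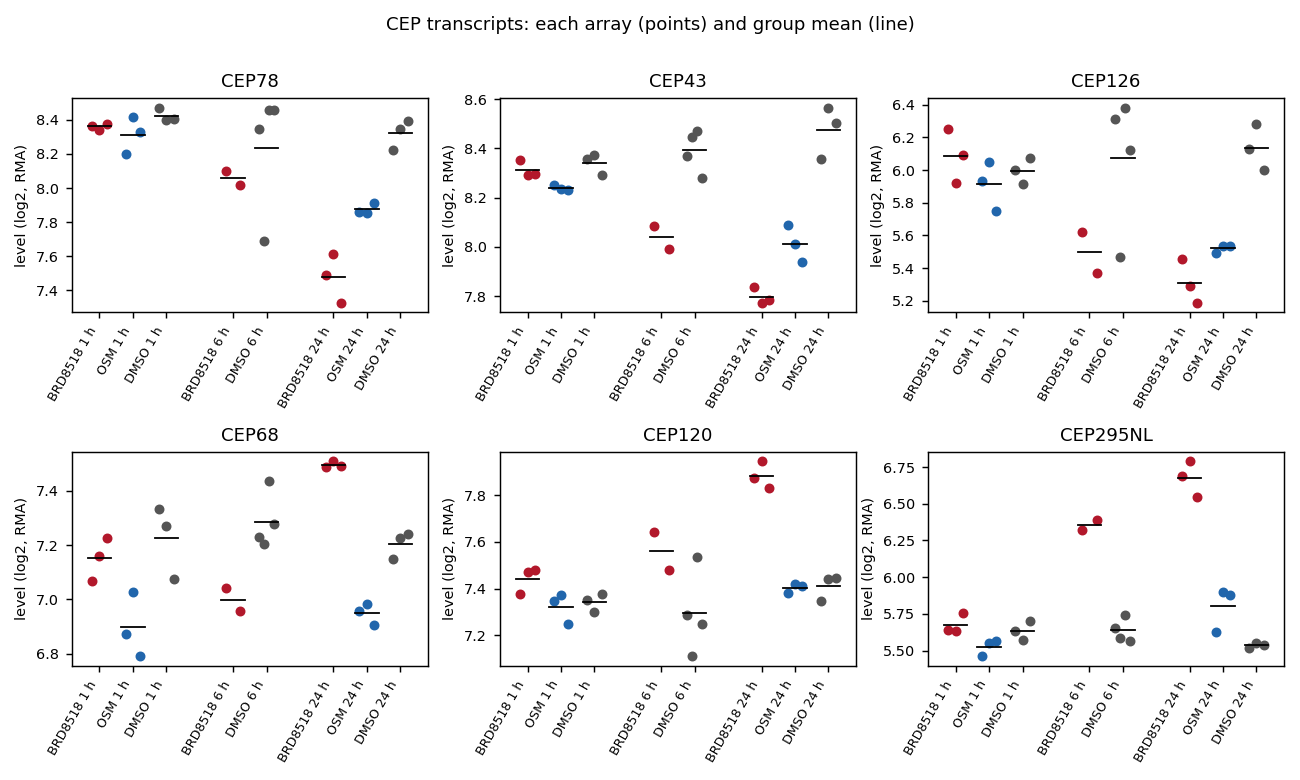
Levels (log2, RMA) of 6 CEP transcripts on each of the 24 arrays, with a line at each group mean; red is BRD8518, blue OSM and grey DMSO, ordered by time. At 24 h CEP78, CEP43 and CEP126 are lower with BRD8518 and with OSM than with DMSO, CEP68 is higher with BRD8518 and lower with OSM, and CEP295NL climbs to 6.55 to 6.79 with BRD8518.

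At 6 h of BRD8518, 16 members were called, 1 higher and 15 lower than DMSO (25.4% of members, against 14.5% of all genes). Without DMSO 6 h replicate 2, the counts were 3 higher and 32 lower (55.6%, against 22.5% of all genes), and the median change of the members was -0.22 in place of -0.12. That array read below the mean of the other 3 DMSO arrays in 50 of 63 members, against 43.8% of all genes, by a median of -0.39. All 16 members called with it were also called without it. Of the 19 called only without it, CEP170B and CEP170P1 were higher, and BBS2, BBS9, BBS10, BBS12, CEP20, CEP41, CEP44, CEP55, CEP70, CEP76, CEP78, CEP97, CEP128, CEP152, CEP290, CEP295 and IFT80 were lower, by -0.20 (BBS2) to -0.70 (CEP295). With 2 treated arrays, the fit of these 6 arrays alone called CEP295NL and no other member, and 13 of the 16 calls were lost when 1 of the 6 arrays was left out, the exceptions being CEP250, CEP72 and CEP295NL.

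IFT70A read 4.73 and 3.90 on the BRD8518 6 h arrays, against 5.67, 4.38, 5.88 and 5.24 on the DMSO 6 h arrays, where the second value is replicate 2. The groups overlapped only through that array, and the change was -0.98 ± 0.29, or -1.28 ± 0.23 without it. The IFT70A call was lost without BRD8518 replicate 2 (-0.56, adjusted p = 0.47), DMSO replicate 1 (0.067) or DMSO replicate 3 (0.07). IFT70B read 4.06 and 4.40, against 5.35, 4.56, 5.41 and 5.41 (-0.95 ± 0.21, or -1.16 ± 0.17 without DMSO replicate 2), with both treated arrays below all 4 DMSO arrays, and its call was lost without BRD8518 replicate 1 (adjusted p = 0.078). IFT81 read 5.78 and 5.59, against 6.45, 6.12, 6.50 and 6.09 (-0.60 ± 0.12, or -0.66 ± 0.12), again without overlap, and its call was lost without BRD8518 replicate 2 (adjusted p = 0.054).

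BBS4, the BBSome subunit that also sits on satellites, read 6.55 and 6.48 with BRD8518 at 6 h, against 7.24, 6.39, 7.33 and 7.22 with DMSO. Replicate 2 was the lowest of all 6 arrays, and the change was -0.53 ± 0.17 with it and -0.74 ± 0.10 without it. CEP126 read 5.62 and 5.37, against 6.31, 5.47, 6.38 and 6.12 (-0.57 ± 0.17, or -0.78 ± 0.11 without replicate 2), and CEP162 read 4.92 and 5.00, against 5.81, 4.87, 5.94 and 5.52 (-0.57 ± 0.19, or -0.79 ± 0.13). For these 3 genes replicate 2 fell among or below the treated arrays, while the other 3 DMSO arrays were above them. The calls of all 3 were lost without either BRD8518 array, DMSO replicate 1 or DMSO replicate 3, and those of BBS4 and CEP162 also without DMSO replicate 4 (adjusted p = 0.054 to 0.29).

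The other falls at 6 h were those of CEP250 (-0.49), CEP72 (-0.40), BBS1 (-0.38), CEP43 (-0.35), IFT20 (-0.35), CEP164 (-0.33), CEP192 (-0.31), IFT122 (-0.31) and CEP68 (-0.29). Without DMSO 6 h replicate 2 these changes were -0.42 for CEP250, -0.35 for CEP72, -0.38 for BBS1, -0.33 for CEP43, -0.41 for IFT20, -0.25 for CEP164, -0.33 for CEP192, -0.25 for IFT122 and -0.31 for CEP68, all still past the threshold. Among these, the calls of BBS1, CEP164, CEP192, CEP68, IFT122 and IFT20 were lost without BRD8518 replicate 1 (adjusted p = 0.073 to 0.23), and those of CEP164, CEP192, CEP43, CEP68, IFT122 and IFT20 without BRD8518 replicate 2 (0.06 to 0.3). Leaving out DMSO replicate 3 ended those of CEP192, CEP68, IFT122 and IFT20 (0.054 to 0.09), and DMSO replicate 1 that of IFT20 (0.11). IFT20 overlaps TMEM97 in the RefSeq table, and TMEM97 changed by -0.19 at 6 h with all arrays (adjusted p = 0.22) and by -0.83 at 24 h. Without DMSO 6 h replicate 2 the TMEM97 change at 6 h was -0.30 ± 0.06 and passed (adjusted p = 0.00041). Both linker genes, CEP250 and CEP68, were lower at 6 h. CEP295NL read 6.32 and 6.39 with BRD8518, against 5.65, 5.59, 5.74 and 5.57 with DMSO (0.72 ± 0.09, adjusted p = 3.3e-06), with no overlap. Of the 21 members that fell at 24 h, 9 had also fallen at 6 h (42.9% of the 21 and 60% of the 15), namely BBS1, CEP126, CEP162, CEP43, CEP72, IFT122, IFT70A, IFT70B and IFT81. Over all genes the shares were 33.5% of those that fell at 24 h and 59% of those that fell at 6 h. With the 6 h calls made without DMSO replicate 2, 16 of the 21 had fallen at 6 h (76.2% of the 21 and 50% of the 32), which adds BBS9, BBS10, CEP128, CEP152, CEP295, CEP70 and CEP78, against 48.8% and 51.9% over all genes.

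**Figure D4:**
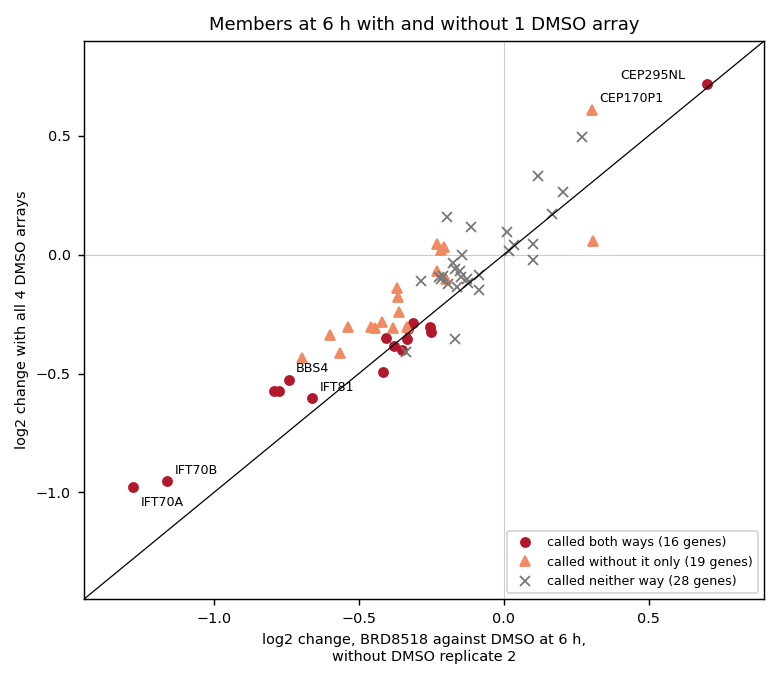
Change of each of the 63 members with BRD8518 against DMSO at 6 h, in log2 units, with all 4 DMSO arrays (vertical) and without DMSO replicate 2 (horizontal); the line marks equal values, and symbols show whether a member was called both ways (16), only without the array (19) or neither way (28). Most points below zero lie above the line, so leaving the array out made most of those changes more negative.

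At 1 h of BRD8518, limma called 0 members, against 0.255% of all genes, with 2 members (CEP85L and IFT20) at an unadjusted p under 0.05. The changes ran from -0.25 (IFT80) to 0.31 (CEP85L). DMSO at 24 h against DMSO at 1 h also gave 0 calls among members and 0% of all genes, with 1 member at an unadjusted p under 0.05.

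Between 1 h and 6 h the BRD8518 effect differed for 5 members (7.94%, against 6.01% of all genes; without DMSO 6 h replicate 2, 31.7% of members, against 12.8%). IFT81 (-0.60 ± 0.17), IFT20 (-0.58 ± 0.16), BBS1 (-0.49 ± 0.12) and CEP72 (-0.45 ± 0.11) were lower at 6 h, and CEP295NL was higher at 6 h (0.68 ± 0.12). IFT20 itself changed by 0.23 at 1 h, -0.35 at 6 h and -0.06 at 24 h. Between 6 h and 24 h it differed for 6 members (9.52%, against 11.1% of all genes; without the array, 20.6%, against 18.4%). CEP76 (0.60 ± 0.16), CEP68 (0.58 ± 0.12) and CEP295NL (0.42 ± 0.12) were higher at 24 h than at 6 h. CEP78 (-0.67 ± 0.20), IFT172 (-0.42 ± 0.14) and CEP43 (-0.32 ± 0.10) were lower. Without DMSO 6 h replicate 2 all 11 of these differences passed, with values of -0.65 for IFT81, -0.64 for IFT20, -0.48 for BBS1, -0.40 for CEP72 and 0.66 for CEP295NL in the earlier interval. In the later one they were 0.72 for CEP76, 0.61 for CEP68, 0.44 for CEP295NL, -0.48 for CEP78, -0.42 for IFT172 and -0.34 for CEP43. CEP68 changed direction with both calls past the threshold, at 0.29 at 24 h and -0.29 at 6 h, and CEP76 did so without that array, at 0.36 at 24 h and -0.36 at 6 h. IFT172 changed by -0.51 at 24 h and -0.08 at 6 h. Leaving out single arrays ended 4 of the 5 calls of the earlier interval and 5 of the 6 of the later one. In the earlier interval CEP295NL kept its call throughout, BRD8518 6 h replicate 1 ended the other 4 (adjusted p = 0.057 to 0.12), and BRD8518 6 h replicate 2 ended those of CEP72, IFT20 and IFT81 (0.06 to 0.21). In the later interval CEP68 kept its call throughout, and either BRD8518 6 h array ended the other 5 (0.057 to 0.2). Several arrays of the other groups ended some of these calls too.

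OSM called fewer members. At 24 h, 12 of 63 were called, 1 higher and 11 lower than DMSO (19% of members, against 10.3% of all genes; without DMSO 6 h replicate 2, 27%, against 17%). Of the 11 that fell, 10 were CEP genes and 1 was an IFT gene, IFT46, and 0 of 8 BBS genes were called. CEP126 read 5.49, 5.54 and 5.54 on the OSM 24 h arrays, against 6.13, 6.28 and 6.00 with DMSO (-0.61 ± 0.16, adjusted p = 0.014). CEP152 read 6.28, 6.16 and 6.10, against 6.74, 6.84 and 6.59 (-0.54 ± 0.13), and CEP128 read 5.91, 5.87 and 5.78, against 6.38, 6.63 and 6.11 (-0.52 ± 0.16). In these 3 genes all OSM arrays lay below all DMSO arrays, but the calls of CEP126 (adjusted p = 0.08) and CEP152 (0.054) were lost without DMSO replicate 2, and that of CEP128 without any 1 array other than DMSO replicate 3 (0.076 to 0.23).

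CEP57L1, which keeps mother and daughter centrioles engaged, read 5.11, 5.41 and 5.22 with OSM at 24 h, against 5.71, 5.90 and 5.65 with DMSO (-0.51 ± 0.13). CEP192 read 7.42, 7.53 and 7.54, against 7.87, 8.02 and 8.02 (-0.47 ± 0.09, adjusted p = 0.0012). CEP43 read 8.09, 8.01 and 7.94, against 8.36, 8.57 and 8.50 (-0.46 ± 0.07, adjusted p = 7.6e-05). CEP192, CEP43 and CEP72 (-0.35 ± 0.08) kept their calls when each array was left out, and the other 9 did not. CEP57L1 lost its call without OSM replicate 1 (adjusted p = 0.071) or DMSO replicate 2 (0.075).

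CEP78 (-0.45 ± 0.14), IFT46 (-0.43 ± 0.11), CEP68 (-0.26 ± 0.08) and CEP85 (-0.23 ± 0.07) completed the falls with OSM at 24 h. CEP295NL read 5.63, 5.90 and 5.88, against 5.52, 5.55 and 5.54 (0.27 ± 0.08, adjusted p = 0.039). CEP78 and CEP68 lost their calls in each of 6 fits without 1 array (adjusted p up to 0.13 and 0.17), CEP85 without any array but OSM replicate 3 (up to 0.17), CEP295NL without any array but OSM replicate 1 (up to 0.19), and IFT46 without OSM replicate 2 or 3 or DMSO replicate 3 (up to 0.062).

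At 1 h of OSM, 2 members fell (3.17%, against 2.84% of all genes; without DMSO 6 h replicate 2, 4.76%, against 5.42%). IFT172 read 6.64, 6.94 and 6.73 on the OSM 1 h arrays, against 7.22, 6.94 and 7.24 with DMSO (-0.36 ± 0.09, adjusted p = 0.034). Its highest OSM array and its lowest DMSO array nearly met. CEP68 read 6.87, 7.03 and 6.79, against 7.33, 7.27 and 7.08 (-0.33 ± 0.08, adjusted p = 0.025). Each of the 2 calls was lost in 4 of the 6 fits without 1 array, IFT172 without OSM replicate 1 or 3 or DMSO replicate 1 or 3 (adjusted p = 0.14 to 0.22) and CEP68 without OSM replicate 1 or 3 or DMSO replicate 1 or 2 (0.1 to 0.17). Between 1 h and 24 h the OSM effect differed for 1 member, CEP43, by -0.36 ± 0.10 (1.59% of members, against 3.37% of all genes). That call was lost in 10 of the 12 fits without 1 array (adjusted p = 0.071 to 0.15). Without DMSO 6 h replicate 2 the OSM effect was higher at 24 h for 1 member and lower for 6 (11.1% of members). The share over all genes in that fit is not given here, so this count is not set against it.

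Set directly against OSM at 24 h, BRD8518 gave 4 higher and 12 lower members (25.4%, against 23.2% of all genes; without DMSO 6 h replicate 2, 16 higher and 17 lower, 52.4%, against 31.9%). The share of members called is near that of all genes with all arrays. The IFT genes account for 6 of the 12 lower members and the BBS genes for 3. IFT70A read 3.50, 4.22 and 3.38 with BRD8518 and 5.73, 5.72 and 5.59 with OSM (-1.98 ± 0.27). IFT70B differed by -1.46 ± 0.20 and IFT81 by -0.81 ± 0.12. None of these 3 genes passed against DMSO with OSM at 24 h, where their changes were 0.07, 0.24 and -0.10.

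Further members lower with BRD8518 than with OSM were IFT56 (-0.46), CEP19 (-0.45), BBS10 (-0.41), CEP78 (-0.40), IFT122 (-0.38), BBS9 (-0.37), BBS1 (-0.32), IFT172 (-0.31) and CEP43 (-0.21). CEP295NL (0.87 ± 0.08), CEP170B (0.73 ± 0.17), CEP68 (0.55 ± 0.08) and CEP120 (0.48 ± 0.08) were higher. CEP68 was above DMSO with BRD8518 and below it with OSM, and its arrays read 7.49, 7.51 and 7.49 with BRD8518 and 6.96, 6.98 and 6.91 with OSM. Of the 16 differences, 6 were lost when single arrays were left out, those of BBS10, BBS9, CEP19, CEP43, CEP78 and IFT172. OSM replicate 1 ended the calls of BBS10, BBS9, CEP19, CEP43 and CEP78 (adjusted p = 0.052 to 0.14), OSM replicate 2 those of BBS9, CEP43, CEP78 and IFT172 (0.068 to 0.09) and OSM replicate 3 those of CEP78 and IFT172 (0.055 to 0.11). BRD8518 replicate 1 ended those of BBS9, CEP78 and IFT172 (0.074 to 0.086), replicate 2 that of CEP43 (0.088) and replicate 3 those of BBS10, CEP19, CEP43 and CEP78 (0.059 to 0.16). At 1 h, 1 member differed, IFT172, higher with BRD8518 (0.43 ± 0.09; 1.59% of members, against 2.34% of all genes), a call lost without OSM replicate 1 (adjusted p = 0.098), OSM replicate 3 (0.067) or BRD8518 replicate 3 (0.057).

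**Figure D5:**
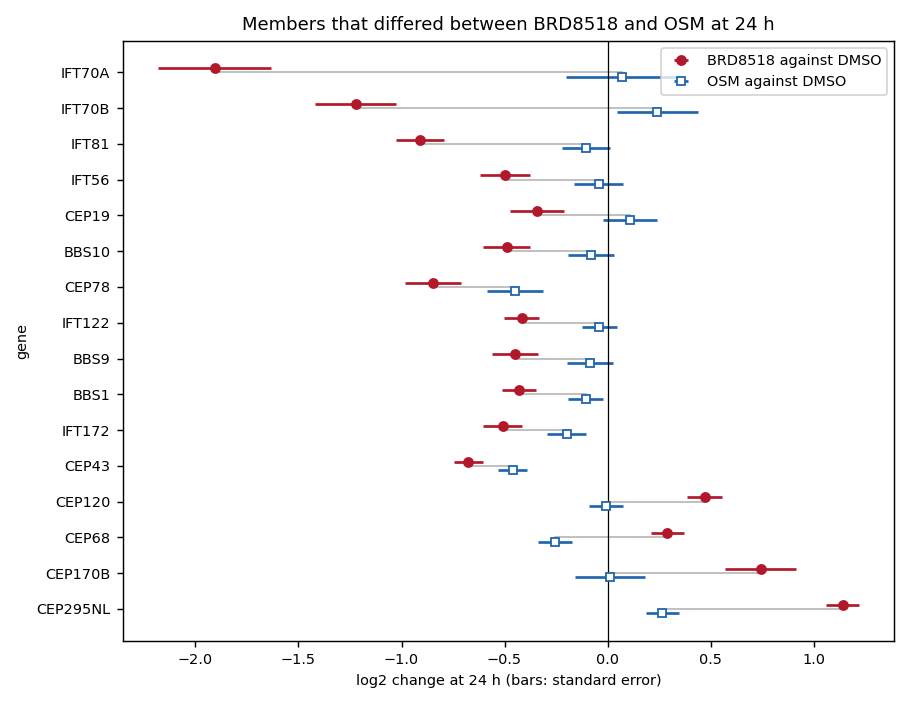
Changes against DMSO at 24 h, in log2 units with standard errors, for BRD8518 (filled red circles) and OSM (open blue squares) in the 16 members that differed between the treatments. IFT70A, IFT70B and IFT81 are far below zero with BRD8518 and near zero with OSM, CEP78 and CEP43 are below zero with both, and CEP68 lies on opposite sides.

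BRD8518 and OSM at 24 h were each set against the same 3 DMSO arrays, so their changes are not independent. Side by side, CEP126 changed by -0.83 and -0.61, CEP43 by -0.68 and -0.46, CEP128 by -0.61 and -0.52, CEP152 by -0.50 and -0.54, IFT46 by -0.44 and -0.43, and CEP72 by -0.36 and -0.35. With CEP78 these are the 7 genes that fell in both, or 33.3% of the 21 with BRD8518 and 63.6% of the 11 with OSM. The like shares over all genes are not given here, so this overlap is not read as particular to the members. Of the 7, CEP43 and CEP78 differed between the treatments, and for the other 5 the difference did not pass. The interval of that difference ran from -0.17 to 0.15 for CEP72, from -0.24 to 0.22 for IFT46 and from -0.24 to 0.32 for CEP152.

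Over the 5 comparisons with DMSO, 34 members (54%, against 35.5% of all genes) were called at least once and 29 in none. The 29 are BBS2, BBS5, BBS7, BBS12, CEP19, CEP20, CEP41, CEP44, CEP55, CEP57, CEP63, CEP85L, CEP89, CEP95, CEP97, CEP131, CEP135, CEP290, CEP350, CEP83-DT, CEP170P1, CEP192P1, IFT27, IFT43, IFT74, IFT80, IFT88, IFT140 and IFT122P3. Without DMSO 6 h replicate 2, 49 members (77.8%, against 47.5% of all genes) were called at least once, so some of the 29 then passed. A miss in this test does not show that a member did not change.

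Other genes of the same structures, from lists of symbols outside the rule, moved with BRD8518 at 24 h as follows, where 15.6% of all genes fell and 12.1% rose. The share called in the hedgehog list (30%) lies near the 27.7% of all genes, and most of the other lists are small. Of 13 centriole duplication genes, 8 fell and none rose, among them PLK4, the kinase that starts duplication (-0.94 ± 0.18), and STIL (-0.74 ± 0.15). Of 16 transition zone genes, 8 fell, among them TMEM67 (-1.26 ± 0.16) and TCTN2 (-1.11 ± 0.17), and RPGR rose (0.77 ± 0.18). Of the 4 IFT-A subunits named otherwise, TTC21B fell (-0.54 ± 0.18) and WDR19 rose (0.51 ± 0.12). The 2 IFT-B subunits named otherwise did not pass. Of 8 BBSome partners, 3 fell, ARL6 by 0.85 and LZTFL1 by 0.57 among them. Of 8 cilium motor genes, DYNC2I2 fell (-0.72 ± 0.12) and 3 rose, KIF3C (1.12 ± 0.12) and KIFAP3 (0.69 ± 0.13) among them.

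Of 13 appendage genes outside the rule, 4 rose, CCDC68 (1.28 ± 0.15) and NIN (0.49 ± 0.08) among them, and 3 fell, ANKRD26 (-0.67 ± 0.18) and SCLT1 (-0.51 ± 0.17) among them. Of 11 satellite genes, 4 fell, TEX9 (-1.36 ± 0.24) and SPAG5 (-0.86 ± 0.10) among them, and MIB1 rose (0.47 ± 0.08). Of 10 genes of pericentriolar material and centrosome maturation, 5 fell, the kinases AURKA (-0.76 ± 0.09) and NEK2 (-0.52 ± 0.17) among them, and NIN rose. AURKA, NEK2 and NIN are also counted in other lists. Of 7 genes of cilium disassembly, NDE1 (1.21 ± 0.08) and KIF2A (0.36 ± 0.10) rose and 3 fell, KIF24 (-1.17 ± 0.13) and AURKA among them. Of 10 hedgehog genes, EVC (-0.41 ± 0.07) and SUFU (-0.33 ± 0.08) fell and GLI1 rose (0.29 ± 0.08). Of 6 ciliogenesis transcription factors, TP73 fell (-0.65 ± 0.10).

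Most S phase and mitosis genes fell at 24 h with both treatments. Of 22 S phase genes, 21 fell with BRD8518 at 24 h (median -1.02) and 19 with OSM at 24 h (median -0.54), and their mean level was 8.12 to 8.19 on the BRD8518 24 h arrays, 8.68 to 8.72 on the OSM 24 h arrays and 9.22 to 9.30 on the DMSO 24 h arrays. Of 25 genes of mitosis and cytokinesis, 22 fell and 2 rose (TSG101 and CHMP4B) with BRD8518 at 24 h, and 15 fell with OSM. At 6 h of BRD8518 13 S phase genes and 11 mitosis genes fell. Over all 14884 genes, 2322 fell with BRD8518 at 24 h, 841 with OSM at 24 h and 1319 with BRD8518 at 6 h. Hepatocyte markers also fell with BRD8518 at 24 h in 9 of 16, and of 13 markers of other cell types CD68 (1.19 ± 0.08) and KRT19 (0.97 ± 0.10) rose. The mean level of those 13 overlapped between the groups, at 6.82 to 6.90 on the BRD8518 24 h arrays and 6.69 to 6.86 on the DMSO 24 h arrays. The part of any of these in the changes of the members was not tested.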

How the data were processed

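RNA of 24 HepG2 samples was hybridised to Affymetrix whole-transcript arrays. The deposited values are log2 intensities of 53617 probe sets that the authors made by RMA with oligo, per the submitters' processing notes, with versions and build not given in the sources used here. Of these, 16098 probe sets carry 1 gene symbol in the platform annotation and 37519 are unnamed here. The probe set with the highest mean stood for each of 14884 genes, and no filter was set. Groups came from the sample labels. limma 3.58.1 in R 4.3.3 (lmFit, eBayes) fitted 1 mean per group over all arrays, with Benjamini-Hochberg adjustment over all genes and a threshold of 0.05. The number of arrays limits the precision. The fit was tested on simulated data. Named genes are the members that passed in a comparison, their role groups and companion gene lists; array values of further members were added after their values were seen. Members, lists and motifs were chosen with earlier results of these data known. Alternatives were a low-signal filter, centring, quantile normalization, moderation with trend, array weights, probe set means, the position letter of the titles (meaning not stated) as a block or term, the compared arrays alone, and leaving out arrays. Promoters were aligned with Biopython 1.88 under Python 3.11.15, and figures drawn with matplotlib 3.10.9.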

Additional observations from a re-analysis of the deposited data

Results flagged for a closer look

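In the 4 DMSO 6 h arrays, 14 of 63 members had 1 array far from the rest. In 13 of them it was replicate 2, which read 6.39 for BBS4, 6.74 for CEP164, 8.56 for CEP170B, 6.32 for CEP170P1, 9.46 for CEP20, 6.41 for CEP295 and 6.69 for CEP41. It read 7.53 for CEP55, 7.57 for CEP57, 7.69 for CEP78, 6.20 for CEP97, 7.09 for IFT140 and 4.56 for IFT70B. For CEP192 it was replicate 3, at 8.04. CEP192 (0.830) and IFT140 (0.830) only just met the rule, and the share of all genes that meet it is not given here.

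The effect of BRD8518 against DMSO differed between times by the interaction contrast of limma. At 6 h minus 1 h it was -0.49 for BBS1, 0.68 for CEP295NL, -0.45 for CEP72, -0.58 for IFT20 and -0.60 for IFT81. At 24 h minus 6 h it was 0.42 for CEP295NL, -0.32 for CEP43, 0.58 for CEP68, 0.60 for CEP76, -0.67 for CEP78 and -0.42 for IFT172. The effect of OSM at 24 h minus 1 h differed for CEP43, by -0.36.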

How the results depend on the processing

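No paired analysis was possible because the labels carry no replicate numbers shared between groups. No change called with all arrays reversed its direction under any alternative run, but some calls were lost. With BRD8518 at 6 h, centring ended those of BBS4, CEP162 and IFT20, and quantile normalization those of CEP162, IFT122 and IFT20. With BRD8518 at 24 h, the letter term ended those of CEP170, CEP295, CEP70 and IFT57. With OSM at 24 h, centring ended those of CEP68 and CEP295NL, quantile normalization those of CEP68 and CEP85, and the letter term those of CEP68, CEP78, CEP85, CEP295NL and IFT46. At 6 h of BRD8518, 6 changes not called with all arrays had the other sign without DMSO 6 h replicate 2, and 3 of these then passed, CEP20 (-0.21, against 0.02 with all arrays), CEP41 (-0.21, against 0.03) and CEP97 (-0.23, against 0.04). The other 3, not passing either way, were IFT74 (-0.20, against 0.16), CEP57 (-0.11, against 0.12) and IFT27 (0.10, against -0.02). With BRD8518 against DMSO at 24 h, the count of 27 members stayed within 1.5 times under every alternative run. At 6 h the count of 16 became 32 with array weights, 35 without DMSO 6 h replicate 2 and 1 with the compared arrays alone, and ran from 5 to 35 when each array was left out, and the median change of -0.12 became -0.22 without that DMSO array. The share called over all genes at 6 h also rose without that DMSO array, from 14.5% to 22.5%. Shares over all genes under the other settings are not given here, so the counts in this section are not read as particular to the members. With OSM against DMSO, the count of 2 at 1 h became 9 with array weights and 1 with the compared arrays alone (0 to 2 leaving out arrays), and that of 12 at 24 h became 20 with array weights and 7 with the position letter as a fixed term (4 to 7 leaving out arrays). For BRD8518 against OSM, the count of 1 at 1 h became 6, 0 and 0 with array weights, the letter term and the compared arrays alone (0 to 1), and that of 16 at 24 h became 33, 33 and 26 with array weights, without DMSO 6 h replicate 2 and with the compared arrays alone. For the BRD8518 effect at 6 h minus 1 h, the count of 5 became 18, 3, 20 and 1 with array weights, the letter term, that array left out and the compared arrays alone (1 to 20), and at 24 h minus 6 h the count of 6 became 14, 13 and 1 with array weights, that array left out and the compared arrays alone (1 to 13). For the OSM effect at 24 h minus 1 h, the count of 1 became 2 with the low-signal filter, 0 with centring, quantile normalization or the letter term, 6 with array weights, 7 without DMSO 6 h replicate 2 and 3 with the compared arrays alone (0 to 2). The compared arrays alone leave fewer samples to estimate the spread and, in comparisons without the 6 h groups, also leave out DMSO 6 h replicate 2. The cause of the moved counts was not tested for any setting. The letter C occurs on 2 arrays of BRD8518 at 1 h and on no other group, so the letter term leaves 1 array to set that group's level. The values come without detection calls, so how far dim members lie above background is not known here.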
